A study of Rattus norvegicus with 15 samples.

Results

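The retinas of sodium iodate-administered rats that had received cells labelled DPSC were compared with those of rats that had received erythropoietin-expressing mesenchymal stem cells (MSCEPO). Each group held 3 RNA-Seq libraries, so 6 of the 15 libraries of the series entered the comparison, and 15439 of the 20375 genes listed were tested because their mean level over these 6 libraries was at least 3.32 on the deposited log2 scale, the log2 of 10. Every rat was a wild type Sprague-Dawley animal at post-natal week 12. In both groups cells suspended in Hank's solution were placed in the vitreous, sodium iodate was given systemically at 40 mg/kg, and the labels place the retinas at day 31 after transplantation. The labels give a density of 100000 cells per μl, which differs from that in the study's methods, so the dose is uncertain. They give dexamethasone (2 mg/kg) before surgery and oral cyclosporin (10 mg/kg/day) afterwards for rats with xenografts. The MSCEPO cells were human Wharton's jelly cells transduced with a lentivirus carrying human EPO. The source of the DPSC cells is not given beyond that abbreviation, and nothing in the sources used here describes these cells further or says whether they were a xenograft. The groups therefore differ in the kind of cell as well as in the added EPO gene, and no library of these 6 came from an eye that received no cells. The no-treatment (NT) and Sham libraries, 3 of each, are given beside the values as background. Sham rats received sodium iodate and NT rats did not, and neither is labelled as having received the immunosuppressants. The DPSC and the MSCEPO libraries both carry these drugs in their labels. By label, Sham therefore differs from both groups in that respect too.

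Sodium iodate is an oxidant that kills the retinal pigment epithelium, after which the photoreceptors that depend on it degenerate. Müller glia and microglia respond to that loss with gliosis and with complement and cytokine expression, and human cells placed in a rat eye are a xenograft that the host's T and B cells can recognise. Antigen reaches T cells on MHC class I and class II molecules, which in the rat are encoded by the RT1 complex and are induced by interferons. Erythropoietin acts through its receptor and JAK2 to STAT5 and is studied in the retina as a survival factor.

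The deposited levels are regularized log (rlog) values from the authors, on which 1 unit is a doubling, and a difference is always the DPSC mean minus the MSCEPO mean. Since rlog shrinks each library toward the mean of the gene, differences understate those in the reads. Read counts were not used here, so depth is unknown. The study calls its replicates biological but does not describe the DPSC group, and the labels do not tie libraries to animals, so p-values measure the spread between these libraries.

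The 6 libraries did not lie by group. The first principal component of the 500 most variable genes held 72.2% of the variance and put MSCEPO 1 (-27.25), MSCEPO 2 (-17.0) and DPSC 2 (-27.68) on one side, and DPSC 1 (20.32), DPSC 3 (23.96) and MSCEPO 3 (27.64) on the other. Over the 15439 genes the Euclidean distance between DPSC 2 and MSCEPO 1 was 27.0, the smallest of all pairs among the 15 libraries. DPSC 2 lay at a mean distance of 51.55 from the MSCEPO libraries and 68.64 from the other DPSC libraries. MSCEPO 3 lay at 75.12 from the DPSC libraries and 90.65 from its own. It was nearer on average to Sham (71.83) than to DPSC, and its nearest library, DPSC 3, was 58.18 away, so it lay apart from each of these groups. DPSC 1 and DPSC 3 had Sham libraries as their nearest neighbours. The mean distance between the groups, 61.1 ± 20.22 (SD, 9 pairs), lay between the mean within DPSC (60.64 ± 14.24, 3 pairs) and the mean within MSCEPO (72.79 ± 31.2, 3 pairs). The labels of both libraries were kept as given, and whether they were exchanged was not tested. If they were, each difference given here would compare mixed groups. Results are given for all 6 libraries, and beside them without DPSC 2, without MSCEPO 3 or without both. These 2 libraries were picked for where they lie, so the values without them are descriptions and lend no support to a difference between the treatments.

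**Figure D1:**
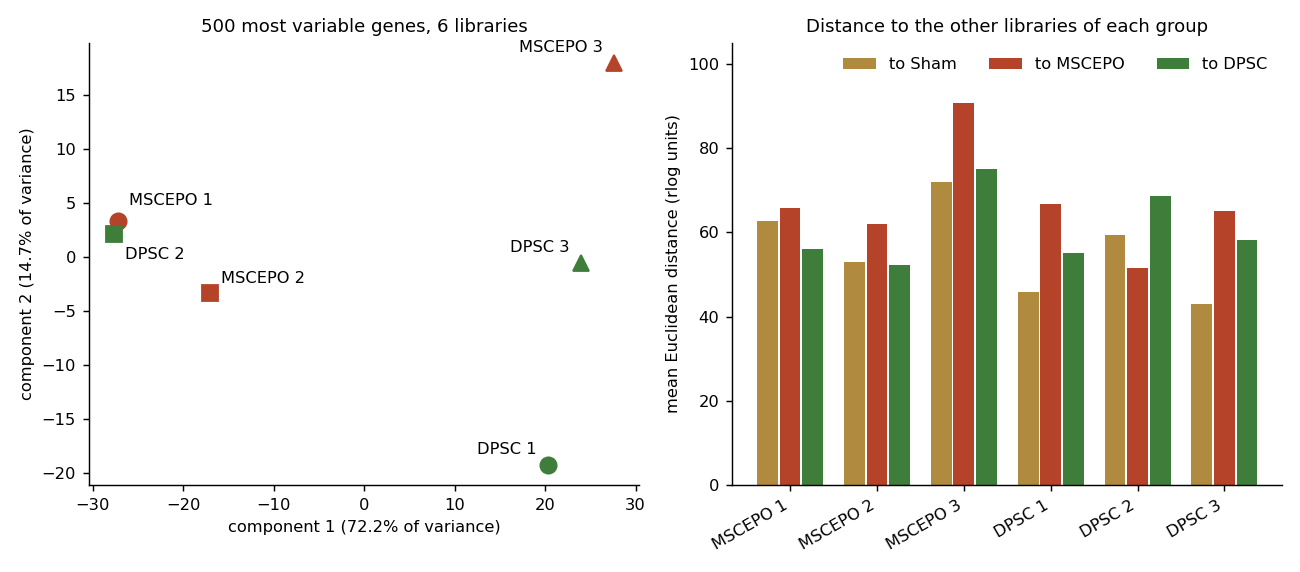
Left, the 6 libraries on the first 2 principal components of the 500 most variable genes. Right, bars from 0 give the mean Euclidean distance of each library to the other libraries of the Sham, MSCEPO and DPSC groups over 15439 genes. DPSC 2 sits beside MSCEPO 1 and has a shorter bar to MSCEPO (51.55) than to DPSC (68.64), and MSCEPO 3 has a shorter bar to DPSC (75.12) than to MSCEPO (90.65).

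With all 6 libraries, limma called 0 genes higher and 0 lower in DPSC at an adjusted p under 0.05 and a difference over 1, and the lowest Benjamini-Hochberg adjusted p of any gene was 1.0 after rounding. At an unadjusted p under 0.05, 75 genes were higher (0.486% of those tested) and 76 lower (0.492%). The difference exceeded 2-fold upward for 47 genes (0.304%) and downward for 53 (0.343%). The 3 DPSC libraries all lay above the 3 MSCEPO libraries for 367 genes (2.38%) and all below them for 303 (1.96%). The central 95% of differences ran from -0.46 to 0.42, the median was 0.01, and 52% of genes had a difference above 0. Without both named libraries, 45 genes higher and 160 lower passed the same threshold, and 79 and 394 exceeded 2-fold. The share of the over-2-fold genes that were higher in DPSC was 47% with all libraries, 26.8% without DPSC 2, 20.2% without MSCEPO 3 and 16.7% without both. It was 83% without DPSC 3, 77.5% without MSCEPO 1, 64.1% without MSCEPO 2 and 57.4% without DPSC 1, so the split between higher and lower followed which library was left out. In all genes described next the adjusted p of limma with all 6 libraries rounded to 1.0, so no single gene passed, and the values are descriptions. SE is the moderated standard error of the difference in that fit, and a smallest p means the smallest unadjusted p of a list.

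**Figure D2:**
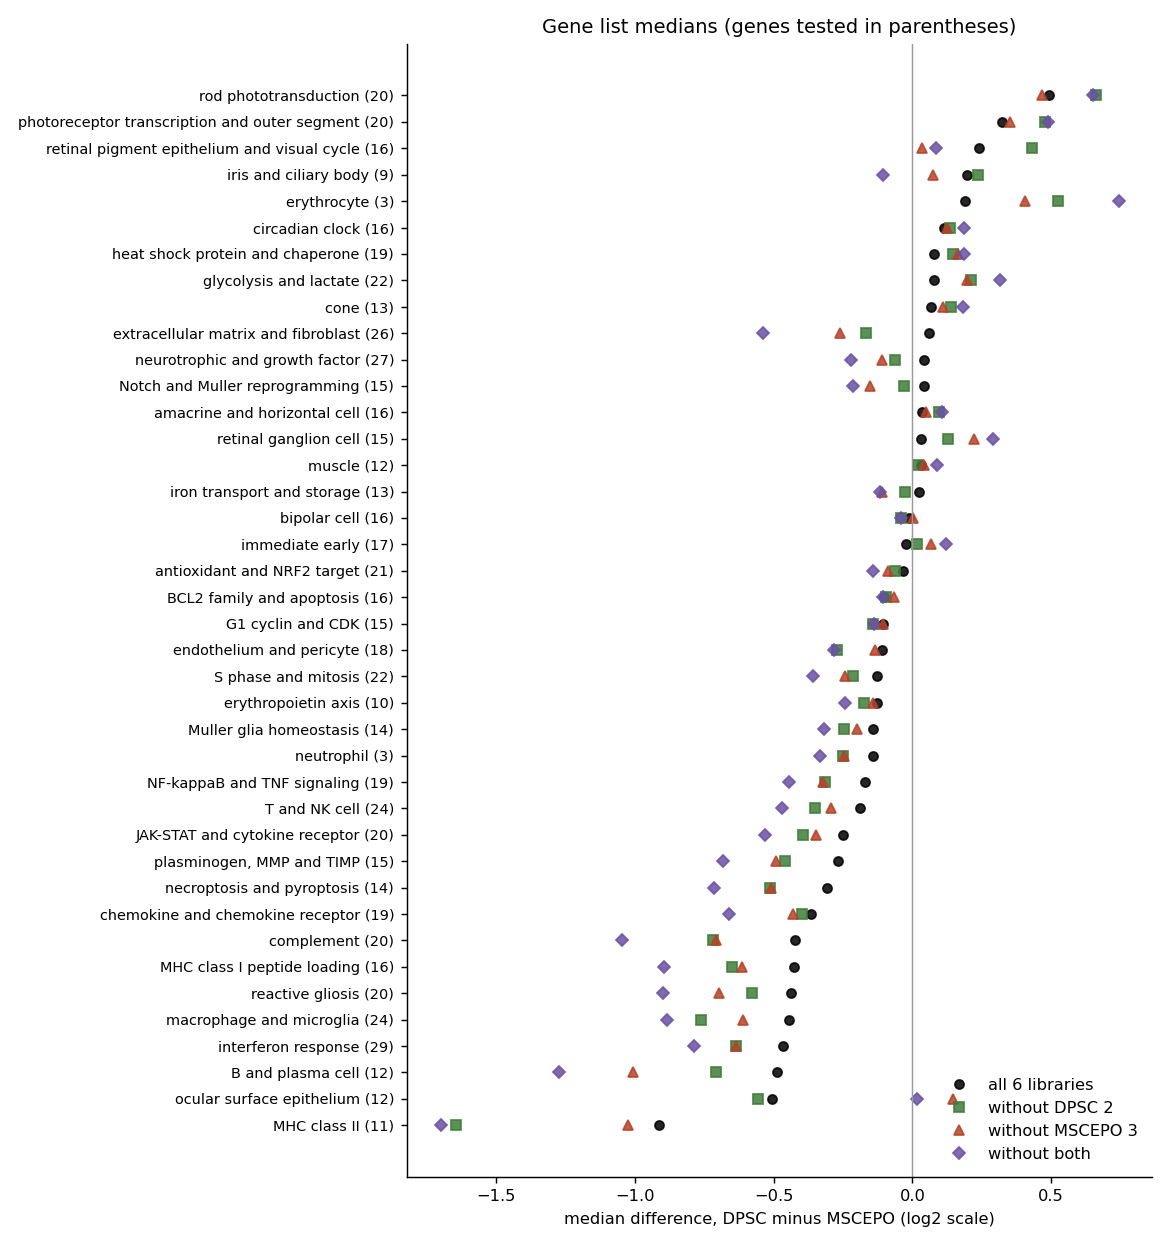
Median difference, DPSC minus MSCEPO on the log2 scale, for the gene lists, with the number of genes tested in parentheses and 1 marker each for all 6 libraries, without DPSC 2, without MSCEPO 3 and without both. MHC class II lies lowest at -0.91 with all libraries and rod phototransduction highest at 0.49. The lens list, at 1.91, and the sex-linked list are not drawn.

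Antigen presentation genes lay lower in DPSC than in MSCEPO retinas. Of 16 measured MHC class I and peptide loading genes 15 were lower, with a median of -0.43, and 6 had all DPSC libraries below all MSCEPO libraries, against 1.96% of all genes. Of 11 MHC class II identifiers 10 were lower, with a median of -0.91, and 4 were lower by over 2-fold. None passed the adjusted test. Class I genes had a mean list level of 9.87, 9.98 and 9.53 in MSCEPO 1 to 3, of 9.28, 9.67 and 9.07 in DPSC 1 to 3, and of 9.16 to 9.23 in Sham, so DPSC 1 and DPSC 3 lay near Sham, while DPSC 2 lay above MSCEPO 3 and the groups overlapped.

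The class I gene with the smallest p was RT1-CE5 (ENSRNOG00000000723), which encodes a class I heavy chain. Its level was 10.71, 10.81 and 11.11 in MSCEPO 1 to 3, and 9.67, 10.35 and 10.01 in DPSC 1 to 3. The groups did not overlap, the DPSC values lay about the Sham mean of 9.94 ± 0.27 (SD, n = 3), and the difference was -0.86 (SE 0.20). RT1-A2, the classical class I heavy chain, was at 11.83, 11.57 and 12.15 in MSCEPO and at 9.78, 11.33 and 10.95 in DPSC, a difference of -1.16 (SE 0.40). RT1-S3 and RT1-CE10, further class I genes, differed by -0.70 and -0.80, also without overlap. Class I genes of the RT1 complex are close copies and vary between rats, so reads could be divided between them and each value is uncertain on its own.

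Tap1 encodes a subunit of the transporter that carries peptides to class I molecules, and it is a single gene. It stood at 8.50, 8.81 and 8.22 in MSCEPO 1 to 3 and at 7.66, 8.13 and 7.74 in DPSC 1 to 3, with Sham at 8.09, 7.73 and 7.82. All DPSC libraries were below all MSCEPO libraries, and DPSC lay at the Sham level (difference -0.67, SE 0.21). The immunoproteasome subunit gene Psmb10 (-0.38) and the proteasome activator gene Psme2 (-0.29) did not overlap either. B2m, the light chain of class I, did overlap, with 13.78 to 14.27 in MSCEPO and 13.06 to 14.12 in DPSC, DPSC 2 being the highest of its group.

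Class II genes in DPSC 2 lay apart from those in the other DPSC libraries. Cd74, the invariant chain that guides class II molecules, was at 13.80, 12.58 and 13.02 in MSCEPO 1 to 3 and at 11.38, 13.52 and 11.60 in DPSC 1 to 3. DPSC 2 exceeded 2 of the 3 MSCEPO libraries while DPSC 1 and DPSC 3 lay at the Sham level (11.39 to 12.14). RT1-Ba and RT1-Db1, an alpha and a beta chain, had the same order and differed by -1.30 (SE 0.64) and -1.03 (SE 0.59). The list median was -1.64 without DPSC 2 and -1.02 without MSCEPO 3, but -0.47 without MSCEPO 1, -0.48 without DPSC 3 and -0.56 without DPSC 1. The class II regulator Ciita stood apart from its targets, at 7.47, 7.28 and 6.24 in MSCEPO and 6.85, 7.15 and 6.95 in DPSC, none of them above the NT mean of 7.89.

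RT1-DMa encodes a chain of the chaperone that loads class II molecules, and its symbol is paired with 2 identifiers. For ENSRNOG00000047854 the level was 7.22, 7.04 and 7.06 in MSCEPO and 4.58, 6.38 and 4.84 in DPSC, a difference of -1.84 (SE 0.46) and the most negative of the non-overlapping genes with a symbol. For ENSRNOG00000047864 it was 5.36, 5.18 and 5.21 in MSCEPO and 5.70, 5.94 and 6.15 in DPSC, a difference of 0.68 (SE 0.15). The pair thus differed in opposite directions, both without overlap. In Sham, too, the library with the highest value for the first (6.23, Sham 3) had the lowest for the second (4.98). Reads could be divided between these identifiers, and the total of the gene was not resolved.

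**Figure D3:**
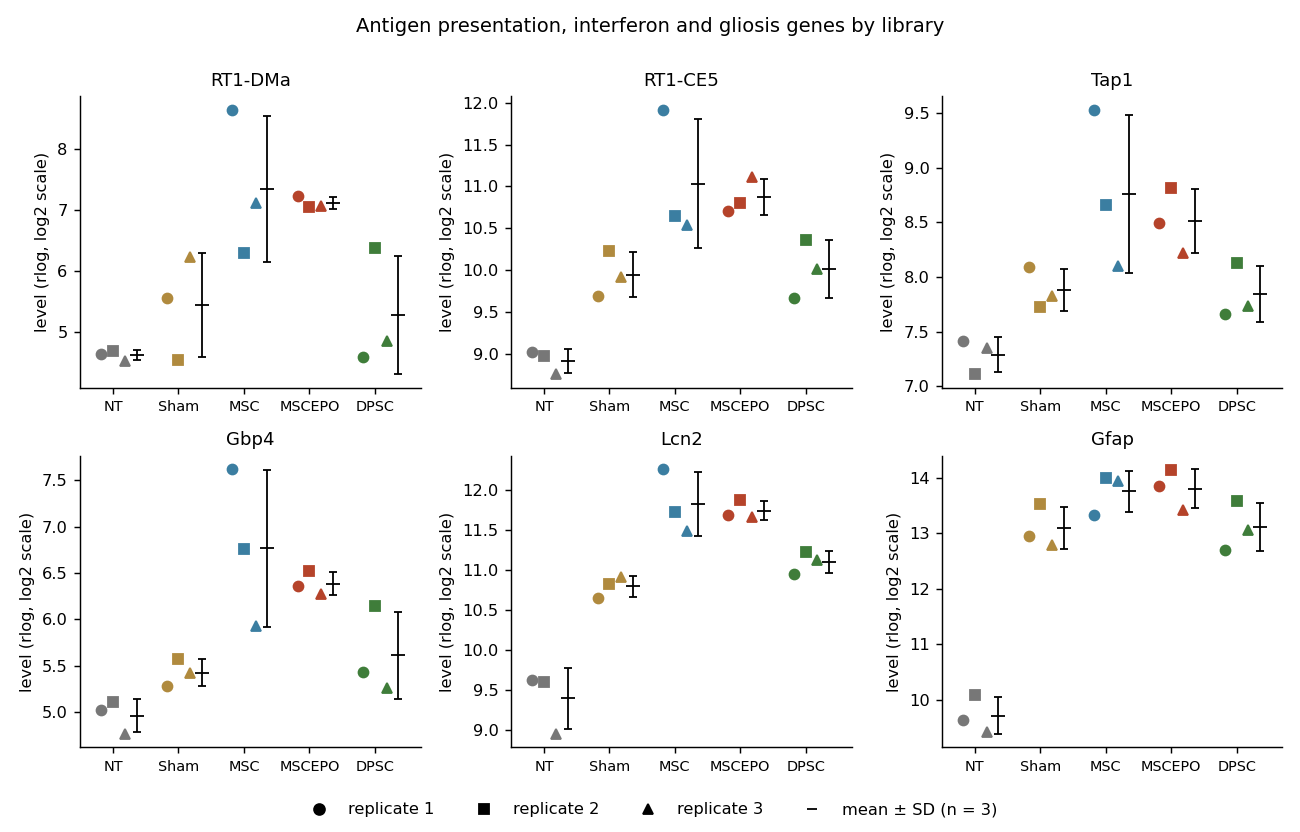
Level on the rlog log2 scale of 6 genes in each of the 15 libraries, with the mean and SD of each group of 3 beside the points. The RT1-DMa panel shows ENSRNOG00000047854. For RT1-DMa, RT1-CE5, Tap1, Gbp4 and Lcn2 all DPSC points lie below all MSCEPO points, and for Gfap DPSC 2 (13.58) lies above MSCEPO 3 (13.43).

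The sequence upstream of 5 of these immune and glial genes is shown because most members of their lists lay lower in DPSC. Each run is the 250 bases before the annotated start in the RefSeq annotation of GRCr8, read 5′ to 3′ along the gene. GRCr8 is not the build the authors quantified on, and it served here for sequence alone. Capitals mark matches on either strand to the letters searched. These were GAAA, any 2 bases and GAAA for the interferon-stimulated response element, TTC, any 3 bases and GAA for the gamma-interferon activated site, GGGA, any base and TTTCC for an NF-kappaB site, and CCAAT for the CCAAT box. All 4 were searched in each window.
Tap1, chr20:4668544-4668793, minus strand: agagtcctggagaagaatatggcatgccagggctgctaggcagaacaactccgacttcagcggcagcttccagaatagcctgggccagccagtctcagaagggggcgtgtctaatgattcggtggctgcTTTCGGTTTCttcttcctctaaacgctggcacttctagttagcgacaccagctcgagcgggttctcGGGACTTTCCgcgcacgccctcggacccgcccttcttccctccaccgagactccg
RT1-S3, chr20:2675278-2675527, plus strand: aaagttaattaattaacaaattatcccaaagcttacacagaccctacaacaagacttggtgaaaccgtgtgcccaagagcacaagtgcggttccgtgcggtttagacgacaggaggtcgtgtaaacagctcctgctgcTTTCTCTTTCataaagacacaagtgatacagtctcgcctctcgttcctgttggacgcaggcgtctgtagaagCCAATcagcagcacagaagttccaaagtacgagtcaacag
Gbp4, chr2:233978236-233978485, plus strand: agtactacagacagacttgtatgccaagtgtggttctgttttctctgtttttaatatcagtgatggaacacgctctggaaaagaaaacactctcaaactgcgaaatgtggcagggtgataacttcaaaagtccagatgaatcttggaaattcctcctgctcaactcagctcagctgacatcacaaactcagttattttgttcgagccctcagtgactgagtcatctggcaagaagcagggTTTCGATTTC
RT1-DMa, chr20:4712336-4712585, minus strand: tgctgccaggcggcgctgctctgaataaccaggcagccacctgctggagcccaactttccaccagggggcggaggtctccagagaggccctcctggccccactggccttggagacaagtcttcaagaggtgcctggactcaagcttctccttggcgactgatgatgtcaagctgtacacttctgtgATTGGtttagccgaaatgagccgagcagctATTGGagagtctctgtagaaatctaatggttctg
Lcn2, chr3:36081781-36082030, minus strand: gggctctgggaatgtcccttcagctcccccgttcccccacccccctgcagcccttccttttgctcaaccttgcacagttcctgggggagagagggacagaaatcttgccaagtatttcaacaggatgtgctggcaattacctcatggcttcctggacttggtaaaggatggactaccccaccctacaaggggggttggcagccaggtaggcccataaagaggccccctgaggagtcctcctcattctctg

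A match to the response element began 121 bases before the start in Tap1, 112 in RT1-S3 and 10 in Gbp4, and Tap1 also held an NF-kappaB match from base 55 before the start. RT1-DMa held 2 CCAAT boxes and no response element in this window, and RT1-S3 held 1 CCAAT box beside its response element. The window of Lcn2 held none of the letters searched. Over all 33469 promoter windows of this length the response element was found in 3.41%, the gamma-interferon letters in 7.67%, the NF-kappaB site in 0.314% and the CCAAT box in 34%. The response element was found in 7 of the 15 class I genes with a window (46.7%), in 14 of 21 interferon response genes (66.7%) and in 0 of 8 class II genes, whereas all 8 class II windows held a CCAAT box. A match is a description of the letters and not a site shown to be used.

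All 29 measured interferon response genes were lower in DPSC, with a median of -0.47 where the median of all genes was 0.01, and 6 of them did not overlap between the groups, against 1.96% of all genes. Differences ran from -1.02 to -0.00. Gbp4, an interferon-inducible GTPase, was at 6.36, 6.52 and 6.28 in MSCEPO and at 5.43, 6.14 and 5.26 in DPSC (difference -0.77, SE 0.25). DPSC 1 lay within the Sham range of 5.28 to 5.57, DPSC 3 just below it, and DPSC 2 between Sham and MSCEPO.

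Isg15, a ubiquitin-like protein, was at 7.05, 6.88 and 6.86 in MSCEPO and at 6.60, 6.49 and 5.85 in DPSC, a difference of -0.61 (SE 0.23). Here DPSC 2 was not the nearest to MSCEPO, and DPSC 3 was the lowest. Sham ranged from 5.53 to 6.63 for this gene, so the DPSC values lay inside the Sham range. Irf9, the DNA-binding subunit of the interferon-activated complex, differed by -0.31. The RNA sensor Oas1a and Ifi27, a mitochondrial protein, differed by -0.48 and -0.60. All 3 were without overlap. Oasl2 (-0.75) and the antiviral membrane protein gene Ifitm1 (-0.73) were among the 12 largest non-overlapping negative differences. For the list the median was -0.63 without DPSC 2, -0.64 without MSCEPO 3 and -0.79 without both. It ran from -0.79 to -0.29 over the 16 alternatives and so kept its sign. Since DPSC 2 and MSCEPO 3 were picked for where they lie, leaving them out cannot test that direction.

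Lcn2, a secreted iron-siderophore binder made by reactive glia, had the smallest p of any gene on the lists described here. It was at 11.69, 11.88 and 11.66 in MSCEPO 1 to 3, at 10.96, 11.23 and 11.13 in DPSC 1 to 3, at 10.66, 10.82 and 10.91 in Sham and at a mean of 9.40 in NT. The spread within each group was small, all MSCEPO libraries lay above all DPSC libraries, and all DPSC libraries lay above all Sham libraries. The difference was -0.64 (SE 0.12). It did not pass adjustment over 15439 genes.

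Of 20 reactive gliosis genes 16 were lower in DPSC and the median was -0.44, or -0.58 without DPSC 2, -0.70 without MSCEPO 3 and -0.90 without both, and -0.23 at its nearest to 0 over the 16 alternatives. Gfap, the intermediate filament of reactive glia, was at 13.84, 14.13 and 13.43 in MSCEPO and at 12.71, 13.58 and 13.06 in DPSC, so DPSC 2 overlapped MSCEPO 3 (difference -0.69, SE 0.28). All 6 values were far above the NT mean of 9.72. Bcl3, a nuclear IκB protein, did not overlap (-0.45, SE 0.17).

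Serpina3n, a secreted protease inhibitor of reactive astrocytes, had the largest negative difference of the list and was divided by library rather than by group. It was at 13.32 and 13.33 in MSCEPO 1 and MSCEPO 2 and at 9.59 in MSCEPO 3. DPSC was at 9.43, 10.54 and 9.72, and Sham at 9.43 to 9.79. MSCEPO 3 thus lay at the Sham level, and the difference moved from -2.18 (SE 1.02) to -3.43 without it. The protease inhibitor gene Timp1 differed by -0.66 and Mmp3, a matrix protease, by -1.23, with MSCEPO 3 and DPSC 2 crossing the groups in both. Of 14 Müller glia homeostasis genes 10 were lower, with a median of -0.14. Crym, a thyroid hormone binding protein, was the one without overlap, at 14.06 to 14.17 in MSCEPO against 13.06 to 13.97 in DPSC (-0.48). Glul, the glutamine synthetase by which Müller cells are known, had overlapping values of 15.21 to 15.74 and 15.52 to 15.62.

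B cell genes followed 3 libraries rather than the groups. Of 12 B and plasma cell genes all 12 were lower in DPSC (median -0.49), and of 24 T and NK cell genes 21 (median -0.19). In either list 0 were free of overlap, where 1.96% of all genes lay lower without overlap. The B cell median was -0.71 without DPSC 2, -1.01 without MSCEPO 3 and -1.27 without both, and the T and NK cell median -0.35, -0.29 and -0.47. Cd79a, a signal chain of the B cell receptor, was at 7.43 and 6.64 in MSCEPO 1 and MSCEPO 2 and at 7.07 in DPSC 2. It was at 4.19 in MSCEPO 3, 4.14 in DPSC 1 and 4.17 in DPSC 3, against 4.01 to 4.30 in Sham. The first 3 libraries thus carried it and the other 3 stood at the Sham level. Ms4a1, the B cell antigen CD20, had the same split, with 6.60, 5.88 and 6.19 against 4.12, 4.01 and 3.98. Cd3e, a chain of the T cell receptor complex, was at 6.10, 5.00 and 5.18 in MSCEPO and 4.41, 5.53 and 4.44 in DPSC, so MSCEPO 3 was above MSCEPO 2 and above the Sham range of 4.16 to 4.34. The B cell list level, which was 4.60 to 4.67 in Sham, was 6.35, 5.90 and 4.80 in MSCEPO and 4.66, 6.13 and 4.73 in DPSC. These are whole retinas, so fewer cells of a type and less RNA per cell cannot be told apart. The part of these cells in the differences of the antigen presentation, interferon and gliosis genes was not tested. In MSCEPO 3, where Cd79a and Ms4a1 were at the Sham level, RT1-CE5 (11.11), RT1-DMa (7.06, ENSRNOG00000047854) and Lcn2 (11.66) were at the level of the other MSCEPO libraries.

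Of 24 macrophage and microglia genes 21 were lower in DPSC, with a median of -0.44 that was -0.88 without both libraries. Tmem119, a microglial membrane protein, was at 7.42, 7.09 and 7.60 in MSCEPO and at 6.36, 6.37 and 7.25 in DPSC, where DPSC 3 and not DPSC 2 was high (-0.70, SE 0.29). Aif1, the calcium-binding protein IBA1, was at 9.98, 9.40 and 9.58 against 8.63, 9.72 and 8.65 (-0.65).

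Complement genes were lower in DPSC for 18 of 20, with a median of -0.42. None was without overlap, where 1.96% of all genes lay lower without it. C1qb, a chain of the first component, was at 10.85, 10.43 and 10.52 in MSCEPO and 9.33, 10.53 and 9.62 in DPSC (-0.77, SE 0.31). C3, the central component, was at 12.61, 12.06 and 12.06 against 10.87, 12.40 and 11.14 (-0.77, SE 0.41). In both genes DPSC 2 lay among the MSCEPO libraries. Of 19 chemokine and receptor genes 18 were lower (median -0.37, and -0.66 without both). Cxcl9, an interferon-gamma-induced ligand that draws T cells, was at 6.68, 6.27 and 5.87 in MSCEPO and 4.96, 6.07 and 4.52 in DPSC (-1.09, SE 0.42). Only 3 neutrophil genes were measured, among them the receptor Csf3r, which was at 5.87 to 5.98 against 5.28 to 5.84 (-0.36).

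Rod genes lay higher in DPSC. All 20 measured rod phototransduction genes and all 20 measured genes of photoreceptor transcription and outer segments had a positive difference, with medians of 0.49 and 0.32, against 52% of all genes and a median of 0.01. No overlap was seen for 2 and 5 of them, where 2.38% of all genes had none. The rod list level was 13.16, 13.00 and 12.97 in MSCEPO 1 to 3, 13.63, 13.21 and 13.76 in DPSC 1 to 3, 13.77 to 13.94 in Sham and 14.46 to 14.56 in NT. Both groups therefore lay below NT, the DPSC libraries lay above the MSCEPO libraries, and none exceeded the lowest Sham library. The median was 0.66 without DPSC 2, 0.47 without MSCEPO 3 and 0.65 without both, and it ran from 0.36 to 0.66 over the 16 alternatives. In a whole retina these values do not separate the number of rods from the RNA in each.

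Pde6b, a catalytic subunit of the rod phosphodiesterase, was at 13.40, 13.28 and 13.70 in MSCEPO and at 14.13, 13.50 and 14.31 in DPSC. DPSC 2 lay within the MSCEPO range, and DPSC 1 and DPSC 3 lay near the Sham range of 14.27 to 14.47 (difference 0.52, SE 0.24). Slc24a1, the rod exchanger that expels calcium, was at 13.69, 13.41 and 13.54 against 14.48, 13.79 and 14.24, without overlap, and differed by 0.62 (SE 0.20). Grk1, a kinase that shuts off the light response, was at 11.45, 11.44 and 10.73 against 12.05, 11.56 and 12.07 (0.68, SE 0.25). The lowest DPSC library of Grk1 was DPSC 2, just above MSCEPO 1. The cGMP-gated channel gene Cnga1 (0.47) and the transducin beta gene Gnb1 (0.56) overlapped.

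Among transcription factors, Esrrb, an orphan receptor that sustains rod energy metabolism, had the largest difference. It was at 8.95, 8.82 and 8.74 in MSCEPO, at 10.22, 9.16 and 10.23 in DPSC, at 9.89 to 10.66 in Sham and at a mean of 11.38 in NT. All MSCEPO libraries were below all DPSC and all Sham libraries, and the difference was 1.03 (SE 0.30). Nr2e3, which represses cone genes in rods, was at 10.68, 10.74 and 10.65 against 11.15, 10.89 and 11.35 (0.44, SE 0.14). Crx, the homeobox factor of all photoreceptors, was at 11.35, 11.26 and 10.82 against 11.75, 11.39 and 11.90 (0.54, SE 0.20), with DPSC 2 just above MSCEPO 1. Nrl, the factor that specifies rods, overlapped (0.41, SE 0.22). Of the structural genes, the microtubule gene Rp1 differed by 0.66 and the flippase Abca4 by 0.32.

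**Figure D4:**
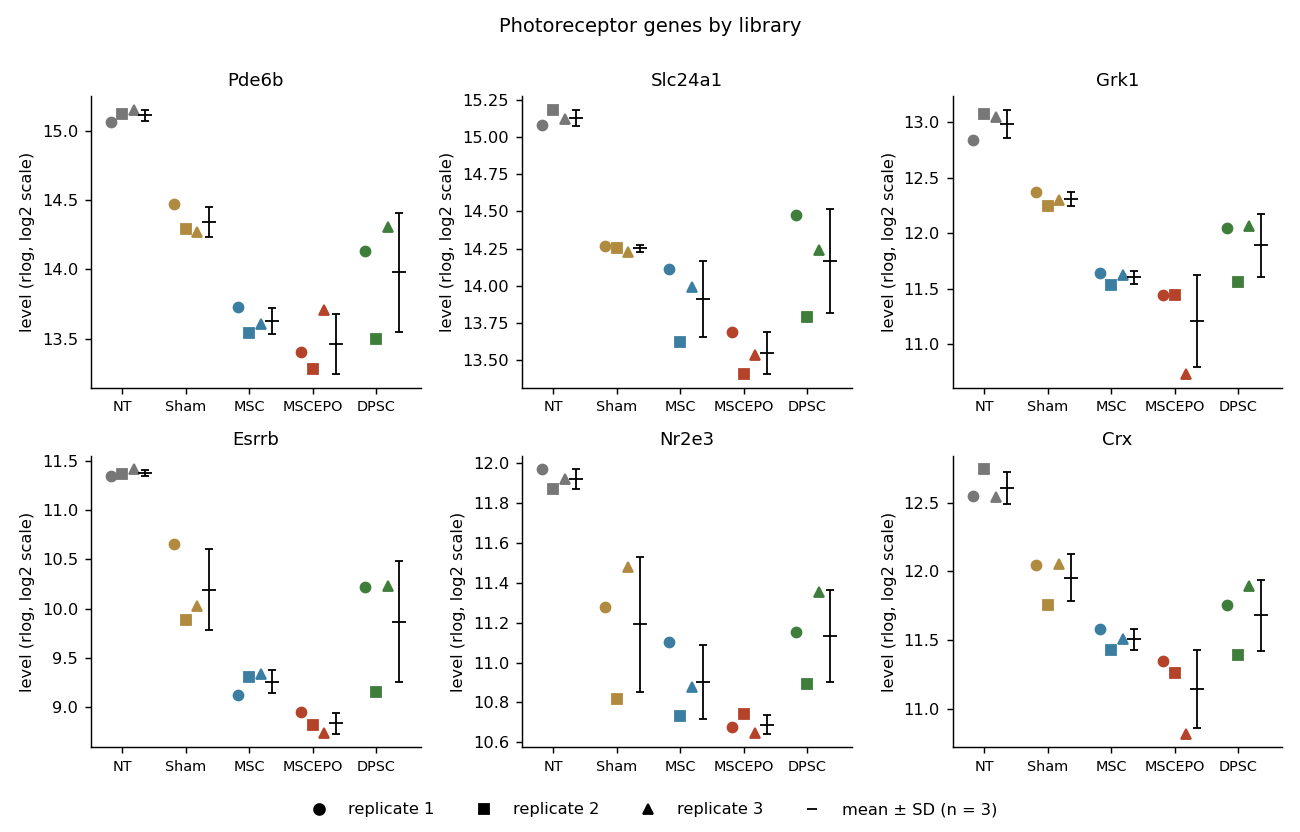
Level on the rlog log2 scale of 6 photoreceptor genes in each of the 15 libraries, with the mean and SD of each group of 3 beside the points. For Slc24a1, Grk1, Esrrb, Nr2e3 and Crx all DPSC points lie above all MSCEPO points, and for Pde6b DPSC 2 (13.50) lies within the MSCEPO points.

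The windows of Crx, of the channel gene Cngb1 and of Esrrb show what the photoreceptor lists hold upstream. They are the same 250 bases before the start in GRCr8, with capitals for TAATCC, the letters bound by CRX, or TGCTGA, part of an NRL site, on either strand.
Crx, chr1:85681853-85682102, minus strand: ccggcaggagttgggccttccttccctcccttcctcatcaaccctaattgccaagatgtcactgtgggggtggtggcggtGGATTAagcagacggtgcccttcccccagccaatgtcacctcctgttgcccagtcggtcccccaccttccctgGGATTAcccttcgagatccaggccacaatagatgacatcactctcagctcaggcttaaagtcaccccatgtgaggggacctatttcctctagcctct
Cngb1, chr19:9732396-9732645, plus strand: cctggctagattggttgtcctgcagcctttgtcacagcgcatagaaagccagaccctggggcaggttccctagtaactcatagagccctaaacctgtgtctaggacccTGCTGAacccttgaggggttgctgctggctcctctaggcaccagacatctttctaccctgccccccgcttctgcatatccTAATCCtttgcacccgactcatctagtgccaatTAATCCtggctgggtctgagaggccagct
Esrrb, chr6:111738412-111738661, plus strand: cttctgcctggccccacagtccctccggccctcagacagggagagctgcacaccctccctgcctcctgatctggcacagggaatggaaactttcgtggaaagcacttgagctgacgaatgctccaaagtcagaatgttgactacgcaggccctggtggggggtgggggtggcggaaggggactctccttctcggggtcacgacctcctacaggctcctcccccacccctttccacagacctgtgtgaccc

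Crx held 2 CRX matches, beginning 170 and 97 bases before the start, and Cngb1 held 2 CRX matches and 1 NRL match. Esrrb, the member with the largest difference, held neither in this window. TAATCC was found in 6.34% of all windows, in 5 of 15 rod phototransduction genes with a window (33.3%) and in 4 of 18 of the other list (22.2%). TGCTGA was found in 15.1% of all windows, and in 4 of 15 and 1 of 18 of these genes.

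Cone genes were mixed, with 8 of 13 higher and a median of 0.07, or 0.18 without both libraries. Opn1mw, the middle-wave cone pigment, was at 7.64, 7.37 and 7.03 in MSCEPO and 8.05, 7.55 and 8.24 in DPSC (0.60, SE 0.25). Arr3, the cone arrestin, was at 9.18 to 9.36 against 9.20 to 9.62 and overlapped. Opn1sw, the short-wave cone pigment, was at 9.67, 7.91 and 8.65 against 8.51, 8.98 and 8.68 (-0.02, SE 0.43). Gnb3, also on this list, was lower in DPSC, with overlap (-0.38, SE 0.28). The difference between rod and cone lists was not tested. Of 16 pigment epithelium and visual cycle genes 12 were higher, with a median of 0.24 that was 0.03 without MSCEPO 3. Rpe65, the isomerase of the visual cycle, was at 10.66, 11.35 and 9.95 against 11.38, 10.77 and 10.92 (0.37, SE 0.36). The melanosome gene Pmel ranged from 8.99 to 11.47 in MSCEPO and from 10.01 to 12.83 in DPSC, a spread within each group larger than its difference of 1.09. How much pigment epithelium each library holds was not known.

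Neurons of the inner retina gave medians near 0 with all 6 libraries. They were -0.01 for 16 bipolar genes, 0.04 for 16 amacrine and horizontal genes and 0.03 for 15 ganglion cell genes. The ganglion cell median was 0.22 without MSCEPO 3 and 0.29 without both, where 15 of 15 genes were higher, and the amacrine and horizontal median was 0.11 without both. Otx2, a factor of photoreceptors and bipolar cells, lay without overlap at 11.20, 11.09 and 11.45 in DPSC against 11.06, 11.01 and 10.96 (0.24, SE 0.12). Pou4f1, which marks ganglion cells, was at 5.81 to 6.19 against 5.84 to 6.26. Pax6, of amacrine cells, was at 12.48 to 12.69 against 12.56 to 12.68. These neuronal markers and Pde6b were present in all 6 libraries.

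Lens crystallins gave the largest positive differences, and they were split by library. Of 20 lens genes all 20 were higher in DPSC, 17 of them by over 2-fold with 0.304% of all genes as background. However, 0 were free of overlap, where 2.38% of all genes lay higher without it. Cryaa, the alpha crystallin of the lens, was at 18.21 in DPSC 1, 17.50 in DPSC 3 and 16.29 in MSCEPO 3, and at 11.76, 14.11 and 11.67 in MSCEPO 1, MSCEPO 2 and DPSC 2. Sham was at 14.22 to 15.17. Crygd, a gamma crystallin, was at 14.43, 13.50 and 12.49 in the first 3 of these libraries and at 5.78 to 6.53 in the others, which made its SE (2.71) nearly as large as its difference (3.03). Mip, the lens water channel, was at 13.09, 12.14 and 11.15 against 8.12 to 8.90. The median of the list was 1.91, and 5.17 without both libraries. The libraries with high lens RNA were those with Sham-level B cell genes, and they included both DPSC libraries with the higher rod list. MSCEPO 3 had high lens RNA and the lowest rod list level of the 6 (12.97). The part of lens tissue in the other differences was not tested.

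**Figure D5:**
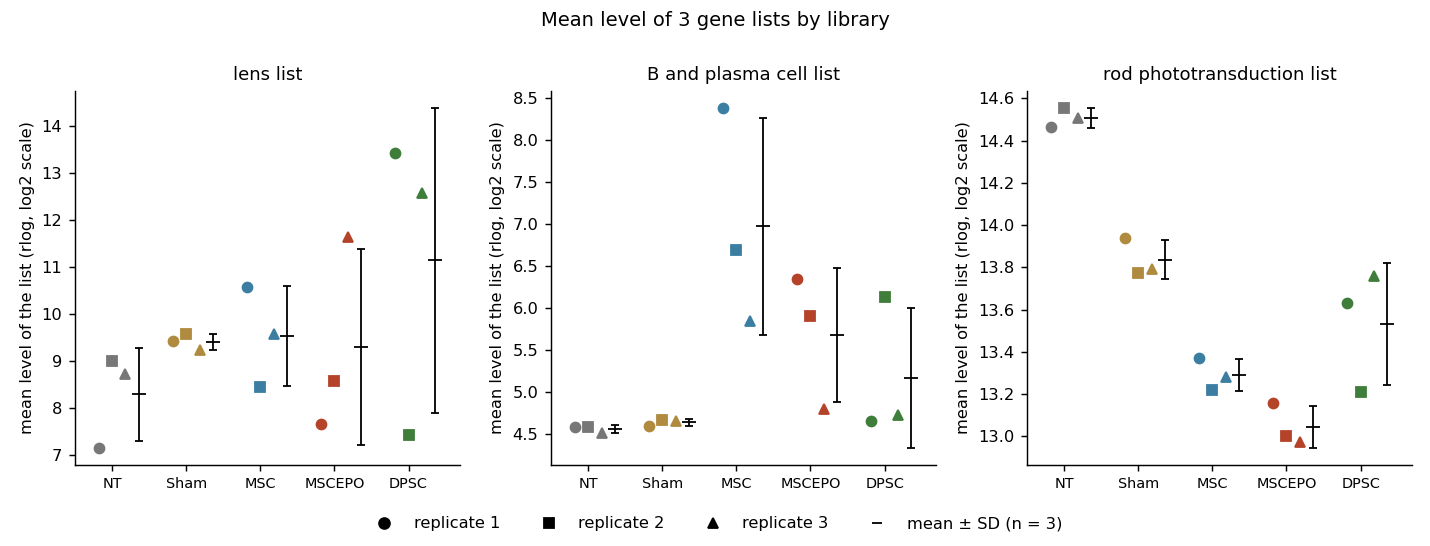
Mean level of 20 lens genes, 12 B and plasma cell genes and 20 rod phototransduction genes in each of the 15 libraries on the rlog log2 scale, with the mean and SD of each group of 3. MSCEPO 3, DPSC 1 and DPSC 3 are high for lens and low for B cell genes, while the rod level is higher in all 3 DPSC libraries (13.21 to 13.76) than in the MSCEPO libraries (12.97 to 13.16).

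Markers of other tissues that dissection can carry were also unequal. The median of 12 ocular surface epithelium genes was -0.51 with all libraries and 0.15 without MSCEPO 3, the library with the highest level (7.06 against 5.44 to 6.05 in the other 5). The 9 iris and ciliary body genes had a median of 0.20 and the 12 muscle genes of 0.03. The 3 erythrocyte genes were highest in DPSC 1, at a mean level of 10.33 against 7.83 to 8.92 in the others. Of 18 endothelial and pericyte genes 14 were lower in DPSC (median -0.11, and -0.27 without DPSC 2), and Vwf, the clotting protein of endothelium, did not overlap (-0.50, SE 0.24), with DPSC 3 lowest at 8.08.

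Of 19 heat shock and chaperone genes 12 were higher, with a median of 0.08. Cryab, a small heat shock protein that is also a lens crystallin, followed the lens genes, at 16.14, 11.64 and 15.32 in DPSC and 11.77, 12.47 and 13.99 in MSCEPO. Hspa8, the constitutive HSP70, did not overlap (0.68, SE 0.36), but without MSCEPO 3, at 9.20, the difference was 0.25. Hspa1a, the inducible HSP70, is paired with 2 identifiers. ENSRNOG00000045654 was at 10.63, 10.52 and 6.99 in MSCEPO and at 10.83, 10.65 and 10.91 in DPSC, a difference of 1.41 that was 0.22 without MSCEPO 3. ENSRNOG00000050647 was highest in that same library (11.15) and differed by 0.08. Reads could be divided between these copies.

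The 10 tested genes of the erythropoietin axis all overlapped between the groups. Of all genes only 2.38% lay higher and 1.96% lower in DPSC without overlap, so 0 of 10 is not particular to this list. Rat Epo was below the level for testing. The human EPO transcript of the MSCEPO cells is not a feature of a rat annotation and was not analysed here. Epor, the receptor, was at 3.58 to 3.81 in MSCEPO and 3.63 to 3.78 in DPSC, a difference of 0.03 (SE 0.10). Jak2, the kinase bound to the receptor, was at 10.08 to 10.59 against 10.13 to 10.51, and Stat5a at 7.96 to 8.31 against 7.72 to 8.27. The 10 genes of the list had a median of -0.13, with 8 lower, and of -0.24 without both libraries. Lyn, a kinase of this pathway and of leukocytes, had its smallest p (-0.51, SE 0.31). The 27 neurotrophic and growth factor genes had a median of 0.04, with 15 higher, but of -0.06 without DPSC 2 and -0.11 without MSCEPO 3. Among 20 JAK-STAT and cytokine receptor genes 16 were lower (median -0.25, and -0.53 without both), and Jak3, a kinase of lymphoid receptors, and Ifngr2, a chain of the interferon-gamma receptor, did not overlap (-0.29 and -0.23).

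Of 14 necroptosis and pyroptosis genes 12 were lower (median -0.31, and -0.72 without both). Zbp1, a nucleic acid sensor that triggers necroptosis and is itself induced by interferon, was at 5.97, 5.74 and 6.32 in MSCEPO and 5.01, 5.67 and 5.03 in DPSC, with DPSC 2 just below MSCEPO 2 (-0.77, SE 0.24). Il18, a cytokine released in pyroptosis, overlapped (-0.66, SE 0.27). The 16 BCL2 family and apoptosis genes had a median of -0.10, with 10 lower. Cdkn1a, the p53 target p21, was at 7.42, 7.51 and 7.88 against 6.89, 7.30 and 7.10 (-0.50, SE 0.19). Its Sham values of 7.26 to 7.34 lay above 2 of the DPSC libraries and below all MSCEPO libraries. Cdkn1c, another inhibitor of cyclin-dependent kinases, was high in DPSC 1 (9.71) and DPSC 3 (8.95) and at 7.82 to 8.31 in the other 4. The 22 S phase and mitosis genes had a median of -0.13, or -0.36 without both, and Mki67, a marker of dividing cells, was at 7.90, 7.35 and 5.86 against 6.66, 7.37 and 5.19.

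Of 22 glycolysis and lactate genes 18 were higher in DPSC, with a median of 0.08. Slc16a1, the lactate transporter MCT1, was at 11.03, 11.01 and 10.88 against 11.46, 11.10 and 11.53, without overlap (0.39, SE 0.14). Hk2, the hexokinase of photoreceptors, overlapped (0.60, SE 0.34). Of 16 clock genes 13 were higher (median 0.11), among them the activator Arntl (0.38, SE 0.16). NT was higher still for all 3 genes, with means of 12.21, 14.01 and 11.59. Antioxidant (-0.03), iron (0.02), immediate early (-0.02) and extracellular matrix (0.06) lists had medians near that of all genes with all 6 libraries. The matrix median was -0.17 without DPSC 2, -0.26 without MSCEPO 3 and -0.54 without both, where 22 of 26 genes were lower, and without both the iron and immediate early medians were -0.12 and 0.12. With all libraries 13 of 15 plasminogen and matrix protease genes were lower (median -0.27, and -0.68 without both). Mt2A, a metallothionein, was at 9.95, 10.36 and 10.69 in MSCEPO and 9.65 to 9.98 in DPSC (-0.51, SE 0.21).

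The largest non-overlapping positive differences outside these lists were led by Smarcb1, a subunit of the SWI/SNF remodelling complex. It was at 7.47, 8.74 and 5.92 in MSCEPO and at 9.32, 9.75 and 9.80 in DPSC (2.25, SE 0.66). Sham ranged from 8.08 to 9.69, so MSCEPO 1 and MSCEPO 3 lay below the Sham range and the DPSC values at its upper end. Intu, a planar polarity and cilium protein, was at 7.68 and 7.87 in MSCEPO 1 and MSCEPO 2, lower in MSCEPO 3, and at 8.43, 8.80 and 8.11 in DPSC, a difference of 1.26 (SE 0.51) that was 0.67 without MSCEPO 3. Gjb6, the gap junction protein connexin 30, was at 5.93, 5.87 and 5.53 against 7.48, 6.75 and 5.99 (0.97, SE 0.37). Sla2, an adaptor that dampens lymphocyte receptors, differed by 0.72. Mpp7 and Fgd6, a scaffold of cell junctions and an exchange factor for Cdc42, differed by 0.72 and 0.71, and by 0.30 and 0.23 without MSCEPO 3.

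Lnpep, a membrane aminopeptidase, and Tsen34, a tRNA splicing subunit, each have 2 identifiers. For Lnpep these differed by 1.11 (ENSRNOG00000047387, no overlap) and by -0.06 (ENSRNOG00000055229). For Tsen34 they differed by 0.84 (ENSRNOG00000055179, no overlap) and -0.24 (ENSRNOG00000059572), and the first was 0.17 without MSCEPO 3. Each positive value is therefore uncertain as a measure of its gene.

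On the negative side Fam50a, a nuclear protein, was at 6.33, 8.02 and 8.72 in MSCEPO and 6.31, 5.07 and 6.30 in DPSC (-1.80, SE 0.66). MSCEPO 1 was barely above DPSC 1, and the Sham libraries spanned 5.07 to 7.91. Capg, an actin-capping protein of macrophages and glia, was steadier, at 8.18, 8.35 and 8.32 against 7.16, 7.83 and 6.89 (-0.99, SE 0.25). Plac8, a small protein of leukocytes and epithelia, was at 8.57, 8.14 and 9.24 against 7.40, 8.09 and 7.44 (-1.01, SE 0.33).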

How the data were processed

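Whole retinas were sequenced as stranded mRNA libraries. According to the labels, the authors ran Salmon 1.1.0 with Rnor_6.0, and per the study's methods tximport and DESeq2 turned its output into gene values. The deposited log2 values are rlog values, which the authors scaled for library size and which the transformation pulls toward the mean of each gene. A count test could not be used, so depth, and the precision it gives, are unknown. A table of the whole series repeats these values in 15 further columns (0 values differ), and those columns were left aside.

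Groups came from the sample titles. A gene entered the test when its rlog values over the 6 libraries averaged 3.32 or more. The test was limma 3.58.1 in R 4.3.3, with group means, moderated variances with a trend on the mean, and Benjamini-Hochberg adjustment over 15439 genes. Calls needed an adjusted p below 0.05 together with a log2 difference beyond 1 in either direction. The script was tested on simulated data with the gene-wise spread of the NT and Sham libraries and planted differences beyond 2-fold. Within NT and Sham the mean distances were 31.4 and 33.87, smaller than within DPSC (60.64) and MSCEPO (72.79). That test therefore does not show what the fit could find in these 6 libraries. Of 732 genes on 42 lists, 4 were matched by a RefSeq synonym and 22 were not matched. Of the genes listed, 2591 had no symbol. Lists are described by counts and medians, with no test, and a list's level is the average rlog over its tested members.

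The rule for named genes took called genes, the 12 largest non-overlapping differences each way that kept their sign without DPSC 2, MSCEPO 3 or both, the defining markers of each list, and up to 4 genes per list with the smallest p. A selection of these is printed, and some further list members (Ciita, Jak2 and others) were chosen after their values were seen. The members and lists were chosen with earlier results of these data known. Promoter windows came from RefSeq (GRCr8), and figures were drawn with Python 3.11.15 and matplotlib 3.10.9. The alternatives were no filter, a filter in every library, 15 or 9 libraries in the fit, a replicate block, median centring, quantile normalization, array weights, no variance trend, other thresholds, and libraries left out. Some genes are not reported here.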

Additional observations from a re-analysis of the deposited data

How the results depend on the processing

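Limits and robustness were as follows. Limma called 0 genes under each filter, library set, scaling and variance setting, and with any 1 library left out. The exceptions were array weights (77 higher and 196 lower in DPSC) and leaving out DPSC 2 and MSCEPO 3 together (45 and 160). The estimation of the weights stopped before its tolerance was reached, and the weights were 6.63 for MSCEPO 2 and 5.25 for DPSC 1 but 0.106 for MSCEPO 3, so that fit rests largely on 2 libraries. The adjusted p alone called 0 genes, a difference over 2-fold alone 47 higher and 53 lower, and an unadjusted p alone 75 and 76. The labels do not say what a replicate number shares. The deviations of same-numbered libraries correlated at -0.326, 0.402 and 0.652, and those of DPSC 2 and MSCEPO 1 at 0.68. Deviations within a group of 3 sum to 0, so these values are not independent. They cannot show whether the numbers pair the libraries. With a replicate block 0 genes were called, and 153 were higher and 130 lower at an unadjusted p under 0.05. The block is balanced over the groups, so it cannot change a difference or a list median.

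Of the 42 list medians, 25 kept their sign under all 16 alternatives, among them both photoreceptor lists, MHC class I and II, interferon, gliosis, macrophage and complement. Of the 85 genes tracked, 82 did. With both libraries left out the medians were -1.70 for MHC class II, -0.89 for MHC class I, -1.05 for complement, -0.72 for necroptosis, -0.44 for NF-kappaB, -0.33 for neutrophil, -0.32 for Müller glia, -0.22 for Notch (-0.2156) and neurotrophic genes (-0.2225), -0.14 for antioxidant, 0.32 for glycolysis, 0.19 for clock and 5.17 for lens genes. With array weights they were 0.35 for cone, 0.22 for heat shock, 0.19 for ocular surface and 1.88 for erythrocyte genes. With each library left out in turn the median ranged from -1.64 to -0.47 for MHC class II, -0.83 to 0.15 for ocular surface, -0.152 to 0.0784 for Notch and -0.0919 to 0.0387 for bipolar genes. The difference ranged from -0.0241 to 0.0926 for Epor, -0.84 to 0.39 for Lnpep (ENSRNOG00000055229) and -0.16 to 0.43 for Hspa1a (ENSRNOG00000050647). The endothelial and glycolysis medians changed sign without DPSC 3, to 0.05 and -0.02. The causes of these shifts were not tested. Using 500 genes for the distances left DPSC 2 and MSCEPO 3 nearer to the other group, and the first component held 63.9% with all genes.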
